A study of Mus musculus with 6 samples.

Results

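The genes described here are 10 genes of fatty acid synthesis, desaturation and elongation, taken as a list of symbols that was drawn up with earlier results of these data known: Srebf1, Acly, Acaca, Fasn, Scd1, Scd2, Fads1, Fads2, Elovl5 and Elovl6. All 10 were found among the 24421 symbols of the count table, and all 10 were among the 11801 genes with enough counts to be tested. RNA was sequenced from the mouse myoblast line C2C12, whose cells fuse to form myotubes once serum is lowered. One group carried a lentiviral hairpin against Gaa (shGAA, 3 libraries) and the other a scrambled hairpin (shScrambled, 3 libraries, written shscrambled in the labels). Cells of both groups were selected with puromycin and then differentiated in 2% horse serum with 4.5 g/l glucose and glutamine. Both groups also carry the word Fed in their titles, which the labels do not explain. How many hairpin sequences were used is not in the labels, nor whether each library is its own infection or culture, so a p-value here speaks of the variation among 6 libraries, part or all of which could be technical.

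Cells build fatty acids from citrate in the cytosol. ATP citrate lyase splits citrate to acetyl-CoA, acetyl-CoA carboxylase turns that into malonyl-CoA, and fatty acid synthase joins these units into palmitate. In the membrane of the endoplasmic reticulum, elongases of the ELOVL family lengthen the chain and desaturases insert double bonds, drawing electrons through cytochrome b5 and its reductase. Transcription of most of these enzymes is driven by the sterol regulatory element-binding proteins, SREBPs. These are made as membrane proteins and freed by proteolysis, so the RNA of the factor does not measure its activity. In muscle the pathway supplies membrane phospholipids and stored triglyceride.

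Gaa, which encodes lysosomal acid alpha-glucosidase and is the gene the hairpin targets, had 47.9, 47.5 and 51.9 CPM (the count scaled to a library total of 1000000) in shGAA 1 to 3 against 106, 124 and 119 CPM in shScrambled 1 to 3, so that 42.1% of the control level was left. Totals ran from 9224038 to 10430270 counts in shGAA and from 9475245 to 9918142 in shScrambled. Within shScrambled, library 1 was the odd one out: chi-square divided by its degrees of freedom was 6.08 and 5.50 against libraries 2 and 3, while all other same-group pairs gave 1.98 to 2.62. Calls of the 10 genes that change without it are given below with both values. For the other pathway genes only counts of calls without it are given. The myogenic label held, with desmin at 1664 ± 82.0 CPM in shGAA and 2047 ± 37.2 CPM in shScrambled (SD, n = 3 each). But 12 myotube markers summed to 2237 to 2440 CPM in shGAA against 2956 to 3285 in shScrambled, and most of each sum was desmin. Of 11 tested, 8 were called lower and 0 higher, beside 19.7% and 18.5% of all tested genes. Their median log2 fold change was -0.71, against -0.30 for desmin. The lowest was Myh3, at 42.3% of the control level, while Ttn lay above 0 at 0.14, not called (adjusted p = 0.115, edgeR). For every marker of this list shScrambled 1 was the highest library of its group. Myh3 had 107, 62.2 and 64.8 CPM in shScrambled 1 to 3 against 31.5, 36.6 and 31.3 CPM in shGAA 1 to 3. No fit without shScrambled 1 is given for the markers. Some were low in both groups, with Ckm at means of 6.35 CPM in shGAA and 12.1 CPM in shScrambled and Myh8 at 0.937 and 1.54 CPM. In such bulk samples, fewer cells of a type and less RNA per cell cannot be told apart. Of 8 adipocyte markers, 5 (Lep, Retn, Plin1, Cidec and Cfd) had no count in any library and only Pparg could be tested (adjusted p = 0.0121, edgeR, higher), with list sums of 9.30 to 12.3 CPM in shGAA against 6.78 to 8.65 in shScrambled. Leukocyte markers summed to 1.32 to 2.15 CPM in shGAA and 2.36 to 2.56 in shScrambled, with Itgam and Cd3e at 0. Endothelial markers summed to 4.14 to 5.01 CPM in shGAA and 2.35 to 4.83 in shScrambled, with Emcn at 0. Among the endothelial markers Tek was called higher, at means of 3.82 CPM in shGAA and 1.52 CPM in shScrambled (adjusted p = 0.00176, edgeR). Cdh5 was called lower, at 0.659 and 1.73 CPM (adjusted p = 0.0280, edgeR). The 5 fibroblast markers summed to 1094 to 1265 CPM in shGAA against 1014 to 1040 in shScrambled, with Thy1 at 0. Most of each sum was Dcn, at means of 1109 CPM in shGAA and 940 CPM in shScrambled. Of 4 tested, 2 were called higher (Dcn and Lum) and 1 lower, beside 18.5% higher and 19.7% lower over all tested genes. The lower gene was Col1a1, at 46.6% of the control level (adjusted p = 1.96e-07, edgeR). The part of these marker differences in the results below was not tested.

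Among the 10 genes, the desaturase gene Scd2 carried most of the difference between the groups. It fell to 51.3% of the control level in shGAA, its paralog Scd1 fell by a much smaller amount, and Acly, which supplies acetyl-CoA, rose slightly. The other 7 genes did not pass the test. Calls were made at an adjusted p under 0.05 in edgeR's quasi-likelihood test, adjusted over all tested genes. By this rule 1 of 10 was higher and 2 of 10 were lower, beside 18.5% of all tested genes called higher, 19.7% called lower and 38.2% called in either direction. When libraries were scaled by size alone, 2809 genes were higher and 1872 lower, against 2182 and 2330. Among tested genes averaging at least 50 CPM, as all 10 do, 46.9% were called, 20.2% higher and 26.7% lower. The count of called members was therefore not above that of other genes. The groups did not overlap in 3 of the 10 genes (Srebf1, Scd1 and Scd2, all lower in shGAA), beside 49.6% of all tested genes, 24.7% with shGAA higher and 24.9% with shGAA lower. Their median log2 fold change was -0.10, against 0.01 over all tested genes. Of the 10, 9 lay below 0, but Fasn, Elovl5 and Elovl6 among these lay above 0 under scaling by library size alone (0.02, 0.03 and 0.04). Without shScrambled 1 the calls were 0 higher and 4 lower.

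**Figure D1:**
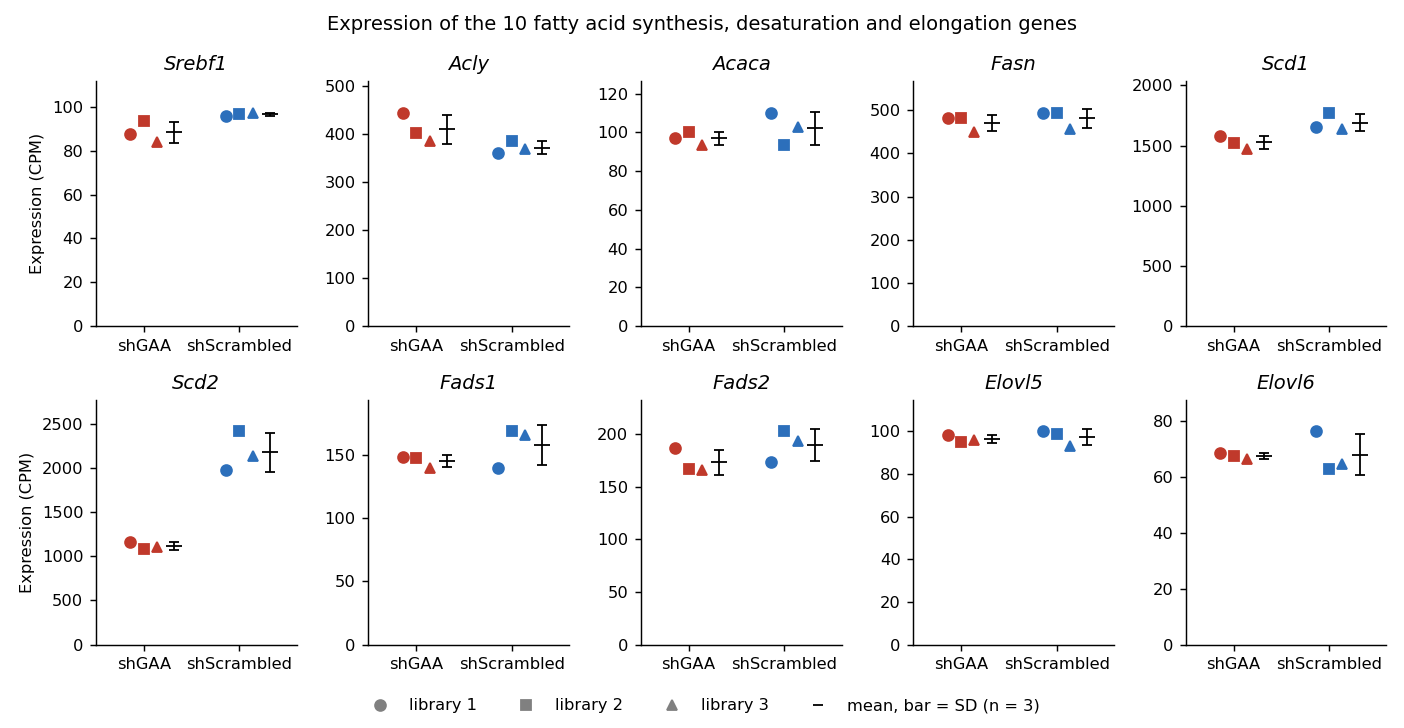
Expression in CPM (vertical axes, each from 0) of the 10 genes in shGAA (red, left) and shScrambled (blue, right), 1 symbol per library, with the mean and SD (n = 3) in black beside the points. The 3 shGAA libraries sit between 1079 and 1162 CPM for Scd2, all below the 1973 to 2411 CPM of shScrambled, while the groups lie close together in the other panels.

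Summed over the 10 genes, expression was 4188 ± 153 CPM in shGAA and 5426 ± 317 CPM in shScrambled (SD, n = 3 each). Of that difference of -1238 CPM, 85.5% came from Scd2 alone. Without Scd1 and Scd2, the remaining 8 genes summed to 1611, 1553 and 1479 CPM in shGAA 1 to 3 against 1548, 1601 and 1541 CPM in shScrambled 1 to 3, so the groups overlapped and their means differed by -0.979%.

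**Figure D2:**
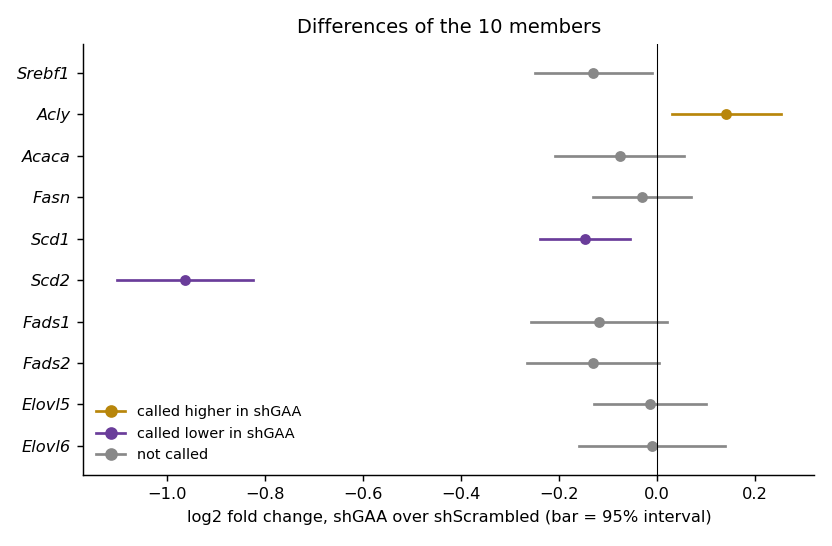
Log2 fold change of shGAA over shScrambled (horizontal axis) for each of the 10 genes (rows), as a point with its 95% interval from edgeR. Scd2 at -0.96 stands far to the left of the others, which lie between -0.15 and 0.14.

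Srebf1 encodes SREBP-1, the member of the factor family most tied to fatty acid genes. It had 87.9, 93.6 and 83.8 CPM in shGAA 1 to 3 against 96.0, 96.9 and 97.2 CPM in shScrambled 1 to 3. Every shGAA library was below every shScrambled library, but the log2 fold change of -0.13 ± 0.06 (SE, n = 3 per group) did not pass (adjusted p = 0.0794, edgeR). Its 95% interval on the percent scale was a change of -15.9% to -0.737%, before adjustment for the number of genes. The a and c isoforms of SREBP-1 start at different first exons and are not separated in a table per gene symbol. Srebf1 lies on chromosome 11 at 60199089 to 60222581 (GRCm38, minus strand), where exons of other annotated genes, mainly Rai1 on the opposite strand, overlap 3.11% of its exonic bases.

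The enzymes that make palmitate changed little. Acly, for ATP citrate lyase, had 443, 401 and 385 CPM in shGAA 1 to 3 against 360, 385 and 368 CPM in shScrambled 1 to 3. The lowest shGAA library and the highest shScrambled library lay at nearly the same level, and the groups overlapped. This gave a log2 fold change of 0.14 ± 0.05 (SE, n = 3 libraries each, adjusted p = 0.0432, edgeR), a rise of 10.4%. The call ended in 8 of 13 alternatives. Without shGAA 1 the log2 fold change was 0.08 (adjusted p = 0.259), and without shGAA 2, shScrambled 1 or shScrambled 3 the adjusted p was 0.0745, 0.0538 and 0.116 in edgeR. Acly lies on chromosome 11 at 100476353 to 100528000 and shares none of its 50-base stretches with other genes (0%).

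Fasn, for the multifunctional fatty acid synthase, was among the more abundant of the 10, at 450 to 482 CPM in shGAA and 457 to 494 CPM in shScrambled. It differed by -0.03 ± 0.05 on the log2 scale (SE, n = 3 libraries each, adjusted p = 0.639, edgeR), with an interval from -8.70% to 4.92%. Acaca, for the cytosolic acetyl-CoA carboxylase that makes malonyl-CoA, lay at 93.6 to 99.97 CPM in shGAA and 93.3 to 110 CPM in shScrambled. Its log2 fold change was -0.08 ± 0.06 (adjusted p = 0.363, edgeR), with an interval from -13.4% to 3.97%. It was -0.02 without shScrambled 1 and -0.14 without shScrambled 2, not called in either case (adjusted p = 0.832 and 0.107, edgeR). For both genes the libraries of the groups intermingled, and these intervals bound the change that the 3 libraries per group leave possible. Of the 50-base stretches of Acaca, 29.2% also occur in the gene model Gm5182, which is not among the counted symbols. With such shared sequence, some Acaca reads may have been dropped as reads with several matches. Fasn shares none of its own stretches (0%).

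Scd1 and Scd2 encode stearoyl-CoA desaturases, which insert the first double bond into saturated acyl chains to make oleate and palmitoleate. Both genes lie on chromosome 19, Scd2 at 44293674 to 44306864 on the plus strand and Scd1 at 44394455 to 44407879 on the minus strand (GRCm38), separated by 87.6 kb. Because they are close paralogs, their reads must be separable for a difference between them to be read. Their coding sequences are identical at 90.3% of 1065 aligned bases, and 2.66% of the 50-base stretches of Scd2 transcripts also occur in Scd1. The stretch of 60 aligned coding bases where they differ most is shown next, with each of its 24 mismatches in capitals. It runs from coding base 88 to 147 in Scd2 and from 79 to 138 in Scd1, counted from the start codon in GENCODE M21.
Scd2: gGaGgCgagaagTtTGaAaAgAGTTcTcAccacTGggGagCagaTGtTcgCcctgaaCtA
Scd1: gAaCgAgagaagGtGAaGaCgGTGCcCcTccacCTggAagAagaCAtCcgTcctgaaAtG
The next stretch is an example of the opposite kind, which is the same in both genes with 0 mismatches over 60 bases (coding bases 451 to 510 in Scd2 and 442 to 501 in Scd1). A short read from it could come from either gene.
Scd2 and Scd1: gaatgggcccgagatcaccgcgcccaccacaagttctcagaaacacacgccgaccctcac
The longest run of identical coding bases was 147. The coding part, without the stop codon, holds 1074 of the 5464 exonic bases of Scd2.

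Scd2 had 1162, 1079 and 1102 CPM in shGAA 1 to 3 against 1973, 2411 and 2137 CPM in shScrambled 1 to 3. The highest shGAA library was far below the lowest shScrambled library, which was shScrambled 1. Its log2 fold change of -0.96 ± 0.06 (SE, n = 3 libraries each) had an adjusted p = 3.24e-07 in edgeR, with an interval from -53.5% to -43.5%. It was -1.03 without shScrambled 1 and -0.88 without shScrambled 2, the widest span over the libraries left out, and the call held in all 13 alternatives. Of 4806 tested genes averaging at least 50 CPM, 28 had a log2 fold change as low as that of Scd2, itself included, and 0.957% had a larger change in either direction. A microRNA gene, Mir5114, lies within 1.12% of the exonic bases of Scd2 on the same strand.

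Scd1 had 1582, 1519 and 1475 CPM in shGAA 1 to 3 against 1656, 1770 and 1641 CPM in shScrambled 1 to 3. The groups did not overlap, but they were separated by less than the range within either group. The difference of -0.15 ± 0.04 on the log2 scale (SE, n = 3 libraries each), or -9.69%, was called (adjusted p = 0.0138, edgeR). The call ended when libraries were scaled by size alone (adjusted p = 0.0634, edgeR). Leaving out shGAA 2, shGAA 3 or shScrambled 2 ended it too (0.0550, 0.0720 and 0.0805). The size of the change in Scd1 was ordinary among the tested genes averaging at least 50 CPM, since 49.0% of these changed by more. Scd1 ranked 34 of 11801 tested genes by mean CPM, so most of that set was less abundant.

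The balance between the paralogs was measured within each library, where scaling cancels. The ratio of Scd2 to Scd1 counts was 0.735, 0.711 and 0.747 in shGAA 1 to 3 against 1.19, 1.36 and 1.30 in shScrambled 1 to 3. Thus Scd1 gave more reads than Scd2 in every shGAA library and fewer in every shScrambled library. The mean log2 ratio was -0.45 ± 0.04 in shGAA and 0.36 ± 0.10 in shScrambled (SD, n = 3 each), a difference of -0.81. An exact two-sided permutation test gave p = 0.1, the smallest that 3 against 3 libraries allow. The ratios of the groups did not overlap. Together the 2 genes held 62.6% to 63.5% of the counts of the 10 genes in shGAA and 70.1% to 72.3% in shScrambled. The other genes of the cluster were nearly silent. Scd3 had 0, 1 and 0 counts in shGAA 1 to 3 against 1, 2 and 2 in shScrambled 1 to 3, and Scd4 had 3, 0 and 8 counts against 2, 2 and 3.

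**Figure D3:**
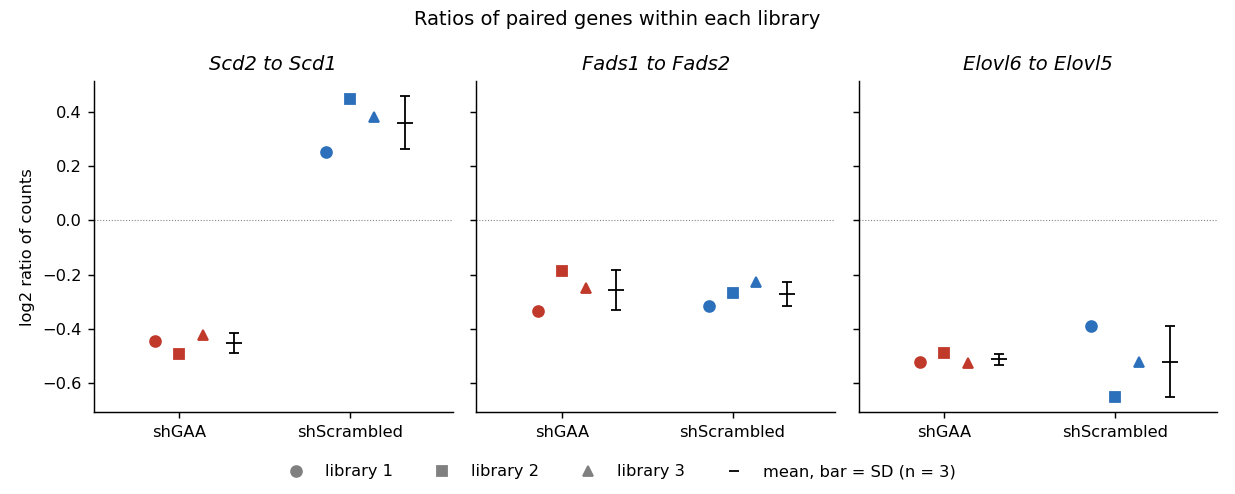
Log2 ratio of the counts of 2 genes within each library (vertical axis) for Scd2 to Scd1, Fads1 to Fads2 and Elovl6 to Elovl5, with shGAA left and shScrambled right, 1 symbol per library, and the mean and SD (n = 3) in black. The Scd2 to Scd1 ratio averages -0.45 in shGAA and 0.36 in shScrambled without overlap, while the groups overlap in the other panels.

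Fads2 and Fads1 encode the desaturases that act in turn on essential fatty acids on the way to arachidonate and eicosapentaenoate. They lie on chromosome 19 on opposite strands, 81.1 kb apart. Fads2 had 187, 168 and 166 CPM in shGAA 1 to 3 against 173, 203 and 193 CPM in shScrambled 1 to 3, and Fads1 had 148, 147 and 139.6 CPM against 139.2, 168 and 165 CPM. For both genes shScrambled 1 was the low library of its group, and it fell within or below the shGAA range. The log2 fold changes were -0.13 ± 0.06 for Fads2 (adjusted p = 0.117) and -0.12 ± 0.07 for Fads1 (adjusted p = 0.168), neither past the threshold in edgeR. Without shScrambled 1 they were -0.19 (adjusted p = 0.00364) and -0.20 (adjusted p = 0.00198, edgeR), so for these genes whether a call is made depends on that library. The ratio of Fads1 to Fads2 overlapped between the groups, with a mean log2 ratio of -0.26 ± 0.07 in shGAA and -0.27 ± 0.04 in shScrambled (SD, n = 3 each, exact permutation p = 0.8, two-sided).

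The elongase genes were nearly level between the groups. Elovl5, whose enzyme lengthens polyunsaturated chains, lay at 94.7 to 98.4 CPM in shGAA and 93.0 to 99.9 CPM in shScrambled, with a log2 fold change of -0.01 ± 0.05 (SE, n = 3 per group, adjusted p = 0.862, edgeR) and an interval from -8.49% to 7.23%. The enzyme of Elovl6 lengthens palmitate to stearate and so makes a substrate of the Scd enzymes. Elovl6 lay at 66.5 to 68.5 CPM in shGAA and 62.9 to 76.2 CPM in shScrambled. Its log2 fold change was -0.01 ± 0.07 (adjusted p = 0.924, edgeR), with an interval from -10.4% to 10.2%. In both genes the shGAA libraries fell inside the range of shScrambled, whose highest library was shScrambled 1. The log2 ratio of Elovl6 to Elovl5 was -0.51 ± 0.02 in shGAA and -0.52 ± 0.13 in shScrambled (SD, n = 3 each, exact permutation p = 0.9, two-sided).

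To compare genes with each other, levels were divided by annotated exonic length, giving RPKM (CPM per kilobase of exon). On this scale Scd1 was the highest of the 10 in shGAA, at 312 ± 11.0 RPKM, followed by Scd2 at 204 ± 7.82 RPKM (SD, n = 3). In shScrambled Scd2 was the highest, at 398 ± 40.5 RPKM, followed by Scd1 at 345 ± 14.5 RPKM. Across libraries their ranges met, since Scd2 in shScrambled 1 (361 RPKM) lay just below Scd1 in shScrambled 2 (362 RPKM). Within each library, however, Scd2 was above Scd1, at 361, 441 and 391 RPKM against 338, 362 and 335 RPKM in shScrambled 1 to 3. The order of the other 8 was the same in both groups: Acly (77.6 ± 5.73 RPKM in shGAA, 70.3 ± 2.45 in shScrambled), Fads2, Fasn, Fads1, Elovl5, Srebf1, Elovl6 and Acaca (5.68 ± 0.187 RPKM in shGAA, 5.98 ± 0.491 in shScrambled). Each of these 8 was separated from its neighbours in the order in all libraries of a group. The order was the same with the length of the longest transcript. That length raised the level of Acaca to 10.2 RPKM in shGAA and 10.7 in shScrambled, close to Elovl6 at 11.3 and 11.4. Since some Acaca reads may have been dropped for shared sequence, its place below Elovl6 is not certain.

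Other genes of the pathway were taken from 4 lists, with 38 of 49 genes tested. Of these, 5 were higher, 13 were lower and 20 did not pass, beside 18.5% higher and 19.7% lower over all tested genes. Their median was -0.05 on the log2 scale, against 0.01 over all tested genes. When libraries were scaled by size alone the counts were 9 higher and 8 lower. Without shGAA 2 or without shScrambled 2, 8 were lower, and without shScrambled 1 the counts were 5 higher and 14 lower. The 11 genes not tested had too few counts. They include the carbohydrate-responsive lipogenic factor gene Mlxipl and the lipogenic regulator gene Thrsp, both with no count in any library, and the mitochondrial-membrane carboxylase gene Acacb, with 22 counts over the 6 libraries.

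In the list of other desaturases, elongases and their partners, 7 of 13 tested genes were lower, 0 higher and 6 not called, with a median log2 fold change of -0.16. Over all tested genes 19.7% were called lower, and 26.7% of those averaging at least 50 CPM. The count of lower genes was 4 when libraries were scaled by size alone and 4 without shGAA 2, and none was called higher in any of the 13 alternatives. Fads3, a relative of Fads1 and Fads2 on the same chromosome, fell by 0.41 ± 0.05 on the log2 scale, at 277 ± 15.3 CPM in shGAA and 368 ± 20.1 CPM in shScrambled (SD, n = 3 each, adjusted p = 1.44e-05, edgeR). Of the genes for cytochrome b5 and its reductases, 3 were called lower and Cyb5r1 was not, at -0.11 ± 0.07 (adjusted p = 0.241, edgeR). Cyb5r3, the reductase of cytochrome b5, had 815 ± 34.1 CPM in shGAA and 1015 ± 15.9 CPM in shScrambled (adjusted p = 2.46e-05, edgeR). Cyb5b, an outer mitochondrial membrane form of cytochrome b5, fell by 0.20 ± 0.05 (adjusted p = 0.00384) and Cyb5a, the form of the endoplasmic reticulum, by 0.26 ± 0.09 (adjusted p = 0.0259, edgeR), the last named after its values were seen because it ranked below the genes taken by rule. Of the genes of the elongation cycle, 3 were called. Tecr, the reductase that ends each cycle, fell by 0.29 ± 0.06 (adjusted p = 0.000544, edgeR). Hsd17b12, the ketoacyl reductase of the cycle, fell by 0.17 ± 0.05, and Elovl1, an elongase of very long saturated chains, by 0.16 ± 0.05 (adjusted p = 0.0143 and 0.0217, edgeR). The dehydratase genes of the cycle, Hacd1, Hacd2, Hacd3 and Hacd4, were not called, at -0.06, 0.0039, 0.09 and 0.09 on the log2 scale, and neither was Elovl4 at 0.19 ± 0.25. The call of Hsd17b12 ended without shGAA 2 (adjusted p = 0.0800) or shScrambled 2 (0.0542), and that of Elovl1 without shGAA 2 (0.0808) or shGAA 3 (0.0766), and both ended when libraries were scaled by size alone (0.0622 and 0.0865). The call of Cyb5a ended when libraries were scaled by size alone (0.0623) and without shGAA 2 (0.0903), shGAA 3 (0.0765), shScrambled 2 (0.0828) or shScrambled 3 (0.0549).

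**Figure D4:**
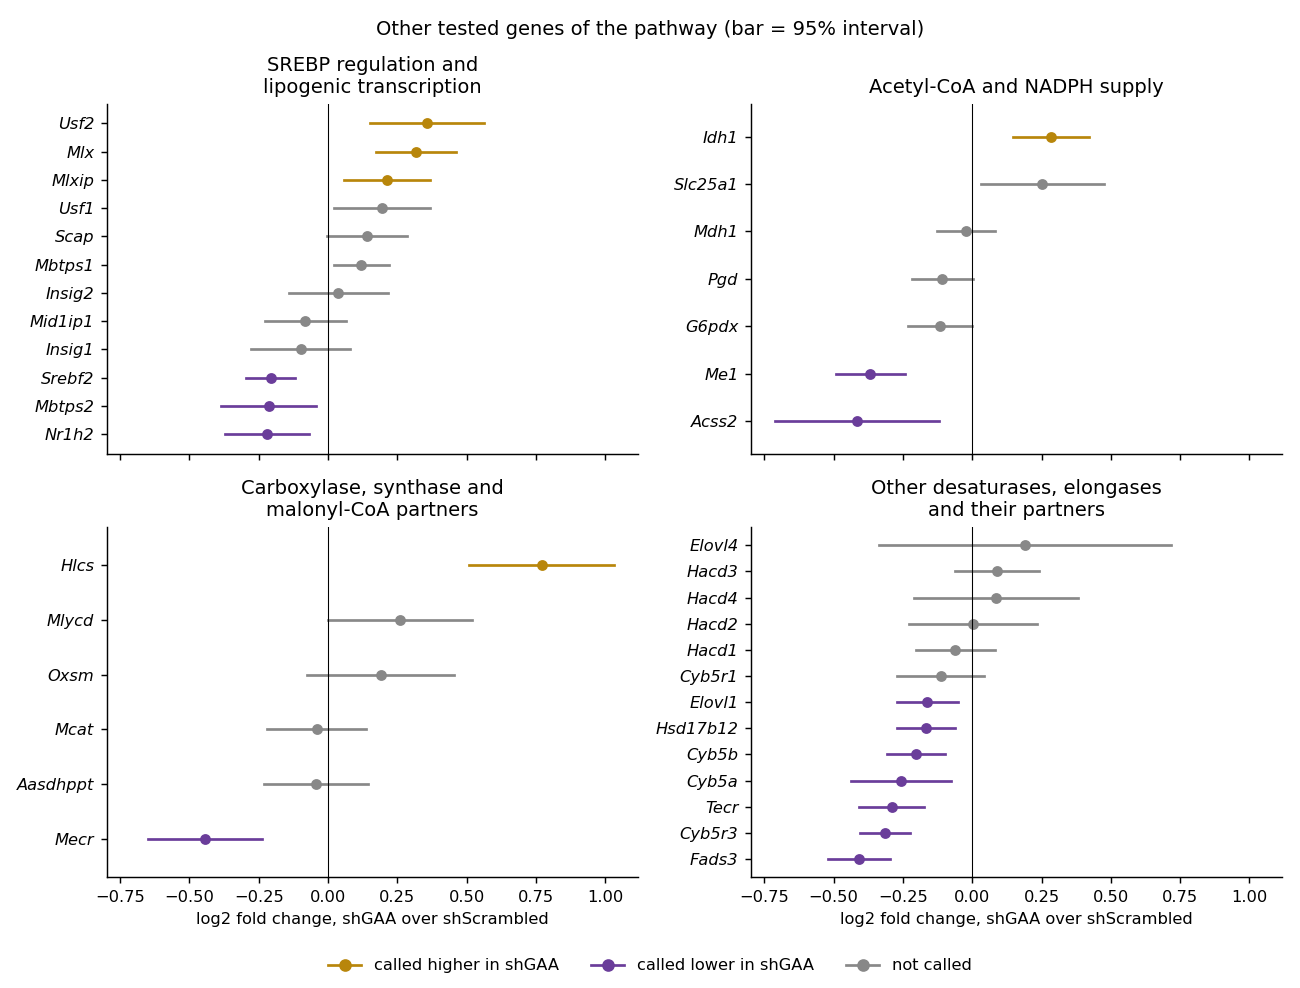
Log2 fold change of shGAA over shScrambled (horizontal axis) with 95% intervals for the 38 other tested genes of the pathway (rows), in 4 panels by list, coloured by call. In the panel of other desaturases, elongases and their partners 7 of 13 were lower and 0 higher, while the regulator panel has 3 higher and 3 lower.

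Of 12 tested regulators of lipogenic transcription, 3 were higher, 3 lower and 6 not called, shares near the 18.5% higher and 19.7% lower of all tested genes. Srebf2, for the SREBP most tied to cholesterol genes, fell by 0.21 ± 0.04 on the log2 scale, at 443 ± 9.12 CPM in shGAA and 512 ± 6.96 CPM in shScrambled (SD, n = 3 each, adjusted p = 0.000945, edgeR). Scap and Insig1, which escort and retain the SREBPs, were at 0.14 ± 0.07 and -0.10 ± 0.08 (adjusted p = 0.112 and 0.368, edgeR). Mlx and Mlxip, for partner factors that sense glucose metabolites, rose by 0.32 ± 0.07 (adjusted p = 0.00150) and 0.21 ± 0.07 (adjusted p = 0.0304, edgeR), and Usf2, for a factor binding E-boxes, rose by 0.36 ± 0.10 (adjusted p = 0.00803). Mlx shares 19.3% of its exonic bases with exons of Psmc3ip on the opposite strand. Nr1h2, for the liver X receptor beta, fell by 0.22 ± 0.07 (adjusted p = 0.0221), and Mbtps2, for a protease that cleaves SREBPs, fell by 0.21 ± 0.08 (adjusted p = 0.0455, edgeR), although 28.4% of its exonic bases are shared with Yy2 on the same strand. These last calls were the least even. That of Mbtps2 ended in edgeR without shGAA 1 (adjusted p = 0.214), shGAA 2 (0.116), shScrambled 2 (0.108) or shScrambled 3 (0.0709), with the replicate block (0.0588) and when libraries were scaled by size alone (0.116). That of Nr1h2 ended without shGAA 1 (adjusted p = 0.0622), shGAA 3 (0.130), shScrambled 2 (0.0840) or shScrambled 3 (0.0638) and when libraries were scaled by size alone (0.0632), and that of Mlxip without shGAA 1 (0.0752), shGAA 2 (0.124), shScrambled 2 (0.0713) or shScrambled 3 (0.108).

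Of 7 genes that supply acetyl-CoA and NADPH, 1 was higher, 2 lower and 4 not called, a share near the 38.2% of all tested genes called in either direction. Without shScrambled 1 the counts in this list were 1 higher and 3 lower. Me1, the malic enzyme that yields NADPH, fell by 0.37 ± 0.06 on the log2 scale (adjusted p = 0.000106, edgeR), and 28.3% of its 50-base stretches occur in other gene models. Idh1, the cytosolic isocitrate dehydrogenase that also yields NADPH, rose by 0.28 ± 0.07, at 178 ± 4.76 CPM in shGAA and 147 ± 15.4 CPM in shScrambled (SD, n = 3 each, adjusted p = 0.00265, edgeR). Acss2, which makes acetyl-CoA from acetate, was low and fell by 0.41 ± 0.14 (adjusted p = 0.0273), a call that ended without shGAA 2 (adjusted p = 0.0904), shGAA 3 (0.125), shScrambled 2 (0.0832) or shScrambled 3 (0.145) in edgeR. Slc25a1, the mitochondrial citrate carrier that brings the substrate of Acly to the cytosol, was at 0.25 ± 0.10 (adjusted p = 0.0687, edgeR). Among carboxylase and synthase partners, 1 of 6 was higher, 1 lower and 4 not called. Hlcs, which attaches biotin to carboxylases such as that of Acaca, was low in both groups and rose by 0.77 ± 0.12 on the log2 scale, at 15.1 ± 0.851 CPM in shGAA and 8.86 ± 0.649 CPM in shScrambled (SD, n = 3 each, adjusted p = 0.000111, edgeR). Mecr, the last enzyme of the separate mitochondrial fatty acid synthesis cycle, fell by 0.44 ± 0.10 (adjusted p = 0.00176, edgeR).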

How the data were processed

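The deposited file holds raw counts, that is, whole numbers of reads for each gene symbol in each of the 6 libraries. The submitters' processing notes name build mm10, HISAT2 2.1.0, Subread, FastQC and edgeR. Which annotation was counted, how reads with several matches were handled and whether strand was used is not given in the sources used here, so reads of near-identical or overlapping genes may be missing or credited to the wrong gene.

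All 11801 genes that passed filterByExpr were tested together. Counts were scaled by TMM and tested in R 4.3.3 with the robust quasi-likelihood test of edgeR 4.0.16, in a model with no term besides group. P-values were adjusted by Benjamini-Hochberg across these genes. The standard error (SE) is the size of the log2 fold change divided by the square root of F, and intervals are at the 95% level. CPM is the count divided by the TMM-scaled total of the tested genes and multiplied by 1000000. Lengths, positions, coding sequences and shared stretches of 50 bases came from GENCODE M21 (GRCm38, the assembly of mm10). Ratios within a library had 0.5 added to each count.

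Alternatives were DESeq2 1.42.0, limma-voom (limma 3.58.1), other scalings, no filter, a non-robust fit, a replicate block and leaving out each library. The code was tested on simulated counts, averaged over 20 draws with 200 of 11801 genes changed. Known changes were 1.5-fold and 2-fold, of which 79.9% and 93.2% were recovered. P-values of unchanged genes were near their nominal rate. Smaller changes, such as those of the 10 genes other than Scd2, were not simulated, so their recovery is not known. The share of false calls after adjustment averaged 8.01%, somewhat above the nominal level, and varied between draws from 3.37% to 14.7%. Far more genes were called in the data (38.2%), so the size of this excess may not carry over. Calls close to the threshold are still to be taken as less certain than their adjusted p. The 10 genes and the pathway and marker lists were chosen with earlier results of these data known. The rule for named genes took these 10, Gaa and, for each pathway list, at most 6 called genes by adjusted p. Other pathway genes named (Cyb5a, Cyb5r1, Hacd1 to Hacd4, Elovl4, Scap, Insig1, Slc25a1, Mlxipl, Thrsp, Acacb, Scd3 and Scd4) and the cell type markers given by name fall outside the rule and were chosen after their values were seen.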

Additional observations from a re-analysis of the deposited data

How the results depend on the processing

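The fall of Scd2 kept its direction and its call under all 13 alternatives, and the difference in the Scd2 to Scd1 log2 ratio lay between -0.87 and -0.77 over the libraries left out. The single higher member (Acly) was lost, giving 0, with the non-robust fit, DESeq2, limma-voom and the replicate block, and the count was 0 to 1 over the libraries left out. The count of lower members was 1 under scaling by library size alone and 1 to 4 over the libraries left out. Pathway genes numbered 9 higher and 8 lower under scaling by library size alone, and 4 to 7 higher and 8 to 14 lower over the libraries left out. Log2 fold changes near 0 changed sign: under scaling by library size alone Fasn was at 0.016, Elovl5 at 0.034 and Elovl6 at 0.037, and over the libraries left out they ran from -0.067 to 0.0028 for Fasn (above 0 without shGAA 3), from -0.045 to 0.0059 for Elovl5 (above 0 without shScrambled 1) and from -0.062 to 0.081 for Elovl6 (above 0 without shGAA 3, at 0.0027, or shScrambled 1). The differences of the Fads1 to Fads2 and Elovl6 to Elovl5 log2 ratios ran from -0.0195 to 0.054 and from -0.055 to 0.075. DESeq2 ended the calls of Mbtps2, Nr1h2, Mlxip and Cyb5a. The causes of these shifts were not tested. Higher genes made up 48.4% of all calls, and 60.0% under scaling by library size alone (2809 higher, 1872 lower).

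Libraries with the same number did not deviate together, with correlations of -0.04, 0.06 and -0.01 for numbers 1 to 3, so the shared numbers were not treated as pairs. With the replicate block 2037 genes were higher and 2197 lower, against 2182 and 2330 without it, and the log2 fold change of Scd2 was -0.96. With 3 libraries per group the exact test of a ratio cannot fall below 0.1.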
